A study of Mus musculus with 4 samples.

Results

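The cells described here are the T cells in a mouse mammary tumour that carried at least 1 transcript of Tcf7, Lef1 or Dapl1, genes of resting T cells. They numbered 217 of 45220 sequenced cells. The tumours were transplants of Py8119, a mesenchymal mammary carcinoma line that came from a tumour of an MMTV-PyMT mouse of the C57BL/6 background. Droplet single-cell RNA libraries were made from 2 control tumour samples (labelled NC) and 2 tumour samples labelled Sema4d-shRNA, in which a short hairpin RNA was used against Sema4d, the gene of semaphorin 4D. All 4 libraries came from dissociated whole tumours with no sort. The labels give neither the age, sex or strain of the hosts nor the hairpin sequence, and they do not say whether the 2 libraries of a group came from separate animals, so each p-value measures only the spread between these libraries.

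A cell was selected on its raw counts of unique molecular identifiers (UMIs, 1 per captured transcript). It needed at least 1 UMI summed over Cd3d, Cd3e and Cd3g, subunits of the T cell receptor complex, and at least 1 UMI summed over Tcf7, Lef1 and Dapl1. It had no UMI of Havcr2 (the checkpoint receptor TIM-3), Foxp3 (the regulatory T cell factor), Cd4, Top2a or Mki67 (both of dividing cells). It had at least 300 genes, and fewer than 10 UMIs per 10000 of Krt8, Krt18, Tm4sf1 and Cdkn2a together (tumour cells) and of C1qa, C1qb and C1qc together (macrophages). These cells are called members. The comparison cells passed the same limits with no UMI of Tcf7, Lef1 and Dapl1, and there were 881 of them. Since these genes chose the members, their levels are a description, and they are not tested between the classes.

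T cells that have not met antigen, or have returned to rest after it, express TCF-1 (Tcf7) and LEF-1 (Lef1), transcription factors that bind DNA alone and with beta-catenin. Such cells travel between blood and lymph nodes with the help of the chemokine receptor CCR7 and the egress receptor S1PR1, and they live on interleukin 7. In tumours, T cells with TCF-1 are known as a self-renewing reserve from which cytotoxic and exhausted cells arise, and these lose TCF-1 as they differentiate.

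The members carried a Tcf7 UMI in 127 cells, a Lef1 UMI in 102 and a Dapl1 UMI in 28. Tcf7 was the only one of these genes in 96 members, Lef1 in 77 and Dapl1 in 10, and 34 members had at least 2 of the genes. The gate rested on a single UMI in 146 members and on 2 or more in 71. At a median depth of 2126 UMIs in the members and 2054 in the comparison cells, a comparison cell may hold an uncaptured transcript of these genes. Another 108 cells with Cd3 and Tcf7, Lef1 or Dapl1 were dropped for an excluded gene, 65 of them for Top2a, 43 for Mki67, 34 for Cd4, 13 for Havcr2 and 5 for Foxp3. Just outside the tumour limit, at 10 to 20 UMIs per 10000, lay 31 cells that met the rest of the rule, and just inside it, at 5 to 10, lay 23 members. For the C1q limit the numbers were 5 cells outside and 23 members inside.

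Cell numbers were 10874 and 10598 for the controls against 10575 and 13173 for the shRNA tumours, with 83513906 to 119758159 UMIs each. The members had 153182, 79024, 158412 and 290527 UMIs in control replicates 1 and 2 and shRNA replicates 1 and 2, so control replicate 2 was the shallowest. In control replicate 1, 41.85% of the members' UMIs came from 4 cells of 10000 or more UMIs, and 4 of its members had at least 10 UMIs per 10000 of Sparc, a gene of these tumour cells. Control replicate 2 had no member of either kind, and shRNA replicates 1 and 2 had 2 and 3 such deep members and 1 and 3 with Sparc. Cells are named in the files by running numbers that restart in each library, so the 756 to 3782 names that a pair of libraries shared say nothing of shared cells, and 1 member's name was found in more than 1 library. In tumour-marker cells Sema4d stood at 7.40 and 8.19 CPM (a gene's UMIs divided by all UMIs of the same cells, in the usual scaling) in the control libraries and at 4.59 and 6.48 CPM in the shRNA libraries.

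The label of naive and memory-like T cells held at most for a part of the members. A UMI of a homing or resting gene (Ccr7, S1pr1, Il7r or Klf2) was found in 21 of 39 and 19 of 29 control members and in 41 of 54 and 70 of 95 shRNA members. A UMI of a cytotoxic gene (Gzma, Gzmb, Gzmk, Prf1 or Ifng) was found in 17, 9, 22 and 35 of the same cells. Both sets were put together after the values had been seen and are given without a test. The homing set rested largely on Klf2, found in 119 members, against 50 for Il7r, 32 for Ccr7 and 21 for S1pr1. Klf2 was not particular to T cells. After thinning to 1000 UMIs, 14.0% to 15.6% of tumour-marker cells held it. Thinning here caps deeper cells at 1000 UMIs, and any cell with fewer was kept at its own depth. The shares were 18% to 21.5% of the comparison cells and at least 23.1% of the members of each library. After the same thinning, cells with a homing UMI and no cytotoxic one made up 25.6%, 41.4%, 50% and 46.3% of the members and 16.05%, 13%, 16.7% and 15.9% of the comparison cells. In full counts these shares were 30.8%, 44.8%, 50% and 52.6% of the members and 20.4%, 20%, 24.2% and 18.7% of the comparison cells. Members of control replicate 1 thus lay nearer to the comparison cells than those of the other 3 libraries. The constant genes of the alpha beta and gamma delta T cell receptors were not analysed here and could not serve as a check.

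**Figure D1:**
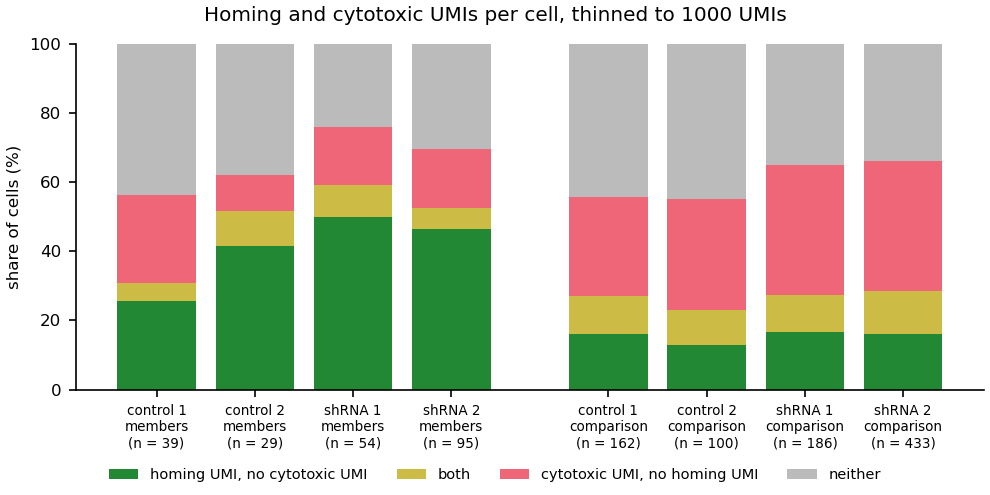
Share of cells (y axis, %) by whether they held a UMI of the homing set (Ccr7, S1pr1, Il7r, Klf2) or of the cytotoxic set (Gzma, Gzmb, Gzmk, Prf1, Ifng), for members and comparison cells of each library. Cells deeper than 1000 UMIs were thinned to 1000, and any cell with fewer was kept at its own depth. Cells with a homing UMI and no cytotoxic UMI take 41.4% to 50% of the members in 3 libraries, 25.6% in control replicate 1, and 13% to 16.7% of the comparison cells. Klf2, the most frequent homing gene in the members, was also found in 14.0% to 15.6% of thinned tumour-marker cells.

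The members made up a like share of the Cd3 cells in control and shRNA tumours. Of all cells with a Cd3 UMI that passed the tumour, macrophage and gene limits (1910 cells), they were 10.9% and 12.9% in the control libraries (exact Clopper-Pearson 95% intervals 7.86 to 14.6 and 8.81 to 18.0) and 12.7% and 10.6% in the shRNA libraries (9.65 to 16.2 and 8.62 to 12.8). The groups overlapped, with means of 11.9 ± 1.41% (SD, n = 2) and 11.6 ± 1.48% (SD, n = 2) and a two-sided exact permutation p = 0.667, where 2 libraries against 2 cannot give less than 0.333. These intervals cover counting error only. Of all cells, the members were 0.360% and 0.274% in control libraries against 0.512% and 0.723% with the shRNA. All Cd3 cells together moved the same way, at 3.3% and 2.13% against 4.05% and 6.85% of the cells, and both sets of shares reached the smallest exact permutation p of 0.333.

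**Figure D2:**
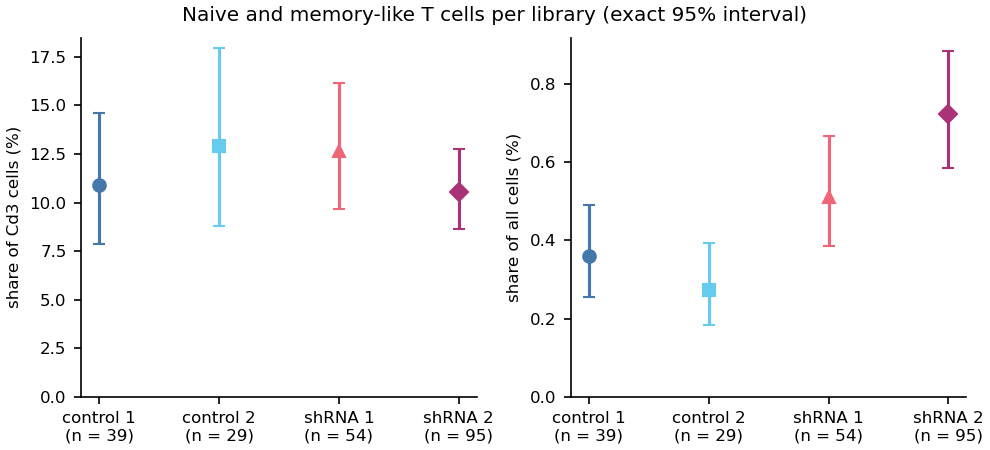
Members as a share of Cd3 cells (left) and of all cells (right), in %, per library, with exact 95% intervals as bars and the number of members under each library. The shares of Cd3 cells overlap between control and shRNA libraries (10.6% to 12.9%), while the shares of all cells are 0.274% and 0.360% for controls against 0.512% and 0.723% with the shRNA.

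The members were then compared with the comparison cells of the same library, which asks what else sets T cells with Tcf7, Lef1 or Dapl1 apart in these tumours. Genes of resting, recirculating T cells were higher in the members: Satb1, Bach2, Il7r, Klf2, Bcl2 and Txk all passed. Of genes of activated effector cells, 6 of 28 cytotoxic and effector genes were lower (S100a6, Lgals1, S100a4 and Ifng among them). So were 2 of 12 checkpoint genes, and the others, granzyme B and Ccl5 among them, did not pass. Of the glycolysis genes, which tumour-marker cells held at a higher summed level than either class, 4 of 15 were lower. With edgeR's quasi-likelihood test on counts summed per library and class, library as a block and Benjamini-Hochberg adjustment, 54 of 3590 genes were higher (1.5%) and 49 were lower (1.36%) at an adjusted p of 0.05.

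Of the naive and memory transcription factors, 12 outside the rule were tested, 6 were higher (Satb1, Klf2, Bach2, Foxp1, Ets1, Klf3) and none was lower, against 1.5% of all genes tested. Their median log2 difference was 0.77, that of all genes 0.004. Some of the 6 were not particular to T cells. Thinned to 1000 UMIs, tumour-marker cells held a UMI of Foxp1 in 11.2% to 11.8% and of Klf2 in 14.0% to 15.6%. For Klf3 the share was 4.84% to 6.90%, for Ets1 3.17% to 4.24%, for Bach2 0.295% to 0.573% and for Satb1 at most 0.0633%. Satb1, a chromatin organiser of T cell development, stood at 222, 164, 158 and 131 CPM in the members of control 1, control 2, shRNA 1 and shRNA 2, and at 45.3, 49.9, 41.8 and 36.5 CPM in the comparison cells. The 2 classes did not overlap, and the log2 difference was 1.96 (SE 0.23, edgeR adjusted p = 2.12e-07). Satb1 kept its call in all 17 alternatives, down to a log2 difference of 1.32. Bach2, a repressor that holds T cells in a resting state, stood at 91.4, 88.6, 69.4 and 99.8 CPM against 21.7, 59.2, 24.5 and 40.7 CPM. Its log2 difference was 1.37 (SE 0.31, edgeR adjusted p = 0.00617), and it lost the call with at least 2 Cd3 UMIs asked of each cell (adjusted p = 0.338), with the gate applied to cells thinned to 2000 UMIs (0.221) and without shRNA replicate 2 (0.107). The thinned gate took only cells of at least 2000 UMIs and summed their full counts. It left 10, 13, 22 and 38 members where the main gate had 39, 29, 54 and 95. A call lost with it thus cannot separate depth from the number of cells. Klf2, a factor that switches on S1pr1, stood at 228, 506, 505 and 478 CPM against 208, 168, 272 and 276 CPM. In control replicate 1 the gap was small, and in the other libraries the members lay well above. The log2 difference was 0.84 (SE 0.17, edgeR adjusted p = 0.00362), and it did not pass without shRNA replicate 2 (adjusted p = 0.107), with no library block (0.0782) or in cells with a Cd8 UMI (0.0675). Foxp1, which keeps naive T cells quiescent, had 235, 253, 202 and 179 CPM against 116, 109, 93.7 and 132 CPM, a log2 difference of 0.89 (SE 0.20, edgeR adjusted p = 0.00695), and lost its call with the thinned gate (0.257) and in cells with a Cd8 UMI (0.534). Ets1 and Klf3 lost theirs in 10 of 17 and 7 of 13 alternatives, among them without control 1 (adjusted p = 0.0641 and 0.197), shRNA 1 (0.0538 and 0.198) and shRNA 2 (0.31 and 0.0576), and Klf3 also without control 2 (0.0628).

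Of the effector transcription factors, such as Tbx21, Prdm1, Id2 and Zeb2, 13 were tested and none passed in either direction, with a median log2 difference of -0.19. Of the partners of TCF-1 in the Wnt pathway only Ctnnb1, Gsk3b and Aes had counts enough for the test, and none passed. Ctnnb1, the gene of beta-catenin, had 79.2 to 101 CPM in the members and 68.6 to 110.5 CPM in the comparison cells, ranges that overlap.

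TCF-1 and LEF-1 bind the letters CTTTGA or, on the other strand, TCAAAG, so the promoters of the genes that rose were searched for them. The RefSeq promoter windows (build GRCm38.p6) hold 250 bases before and 50 after each start site. Of the 54 higher genes, 38 had a window, and 8 held the letters (21.1%: Emb, Ptprc, Txk, Acp5, Bach2, Foxp1, Pim2, Ppm1h). Of the 49 lower genes, 39 had a window and 5 held them (12.8%), against 392 of 2763 tested genes (14.2%). A gene with several starts counted if any of its windows held the letters. Counted by single windows, which is a different unit, the share was 5257 of all 32851 (16.0%). The stretches below show where the letters lie in 3 of the genes that rose. The letters, on the gene's strand, are in capitals.
Bach2, chr4:32417297-32417392, plus strand: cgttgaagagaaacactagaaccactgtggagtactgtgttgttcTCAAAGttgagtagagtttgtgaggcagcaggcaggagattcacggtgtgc
Txk, chr5:72752919-72753014, minus strand: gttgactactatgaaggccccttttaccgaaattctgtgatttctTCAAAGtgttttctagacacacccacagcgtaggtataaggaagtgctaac
Foxp1, chr6:99266669-99266764, minus strand: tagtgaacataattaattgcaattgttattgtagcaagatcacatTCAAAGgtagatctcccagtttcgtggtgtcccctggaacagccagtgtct
The match begins 93 bases before the start site in Bach2, 192 in Txk, where it belongs to 1 of 2 annotated starts, and 204 in Foxp1, where it belongs to 1 of 3. The windows of Il7r, Satb1 and Klf2 do not hold these letters, and a match is a run of letters and no measured binding.

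Of the homing and egress genes reported here, 7 were tested, 3 were higher (Itgb7, Selplg and Ly6c2), against 1.5% of all genes, and none was lower. The receptors Ccr7 and S1pr1 had too few counts for the test. Ccr7, the receptor that guides T cells into the T zone of lymph nodes, had 13.1, 88.6, 75.8 and 110.1 CPM in the members against 3.62, 12.5, 18.7 and 11.0 CPM. S1pr1, the receptor for exit from lymph nodes, had no UMI in control replicate 1 and 38.0, 69.4 and 44.8 CPM in the other members, against 4.33 to 9.36 CPM in the comparison cells. Both genes were thus higher in the members of 3 libraries by more than the comparison cells varied, and not so in control replicate 1. Itgb7, the beta7 integrin of gut homing, had 189.3, 228, 259 and 175 CPM against 127, 140.3, 92.3 and 97.2 CPM (log2 difference 0.93, edgeR adjusted p = 0.00433), and lost its call without shRNA 1 (0.0948) and shRNA 2 (0.085). Selplg, an adhesion protein of leukocytes, lost its call (log2 difference 0.59, edgeR adjusted p = 0.0309) in 12 of 17 alternatives, among them without control 2 (0.144), shRNA 1 (0.0962) and shRNA 2 (0.143). Ly6c2, a surface protein of memory CD8 cells whose reads a close copy (Ly6c1) may share, had a log2 difference of 0.51 (edgeR adjusted p = 0.0269) and lost its call in 9 of 17 alternatives, among them without control 2, shRNA 1 and shRNA 2.

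Of the survival and cytokine receptor genes, 13 were tested and 2 were higher, Il7r and Bcl2, against 1.5% of all genes. Il7r, the interleukin 7 receptor that keeps naive and memory cells alive, had 97.9, 189.8, 107 and 155 CPM in the members and 61.6, 24.9, 66.3 and 71.7 CPM in the comparison cells. The classes did not overlap, with a log2 difference of 1.15 (SE 0.26, edgeR adjusted p = 0.00957). It was not past the threshold with at least 2 Cd3 UMIs (adjusted p = 0.271), without shRNA replicate 2 (0.143), in cells with a Cd8 UMI (0.533) or with the thinned gate (0.0585). Bcl2, the survival gene that interleukin 7 sustains, had 287, 418, 290.4 and 234 CPM against 188, 168, 138 and 166 CPM, a log2 difference of 0.83 (SE 0.18, edgeR adjusted p = 0.0047). Its call was lost with at least 2 Cd3 UMIs (adjusted p = 0.293), with the thinned gate (0.298) and in cells with a Cd8 UMI (0.533). Pim2, a survival kinase, also rose, by 1.37 on the log2 scale (edgeR adjusted p = 0.0125), and lost its call in 6 of 16 alternatives, among them without marked doublets (0.0733) and without control replicate 1 (0.0802).

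Among the naive surface and signature genes 9 were tested outside the rule, 1 was higher (Txk), against 1.5% of all genes, and all 9 lay above 0. Txk, a kinase of the T cell receptor pathway in resting cells, had 65.3, 38.0, 63.1 and 65.4 CPM against 14.5, 15.6, 21.6 and 23.4 CPM, with no overlap (log2 difference 1.62, SE 0.35, edgeR adjusted p = 0.00433, kept in all 11 alternatives that tested it). Its untested settings included at least 2 Cd3 UMIs, the thinned gate, the fit without shRNA 2 and cells with a Cd8 UMI. Bach2, Il7r, Bcl2 and Foxp1 lost their calls in some of these settings, so the kept call cannot rank Txk above them. Cd27, a costimulatory receptor, had 65.3, 50.6, 94.7 and 68.8 CPM against 74.2, 125, 41.8 and 73.1 CPM, and the classes overlapped. Of the T cell receptor signalling genes, 16 were tested and 2 were higher, against 1.5% of all genes. These were Skap1, an adaptor for integrin activation (log2 difference 1.02, edgeR adjusted p = 0.000419), and Ptprc, the phosphatase CD45 (0.66, 0.00364). Both lost their call with at least 2 Cd3 UMIs (adjusted p = 0.256 and 0.691) and in cells with a Cd8 UMI (0.649 and 0.706), and Ptprc also without shRNA 2 (0.0776). The gene with the largest log2 difference, 3.12 for A630014C17Rik, lies on chromosome 11 from 52276055 to 52286179 on the plus strand and overlaps Tcf7, which runs from 52252371 to 52283014 on the minus strand. The use of strand in the counting is not given, so its reads cannot be told apart from those of Tcf7, a gene of the rule.

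**Figure D3:**
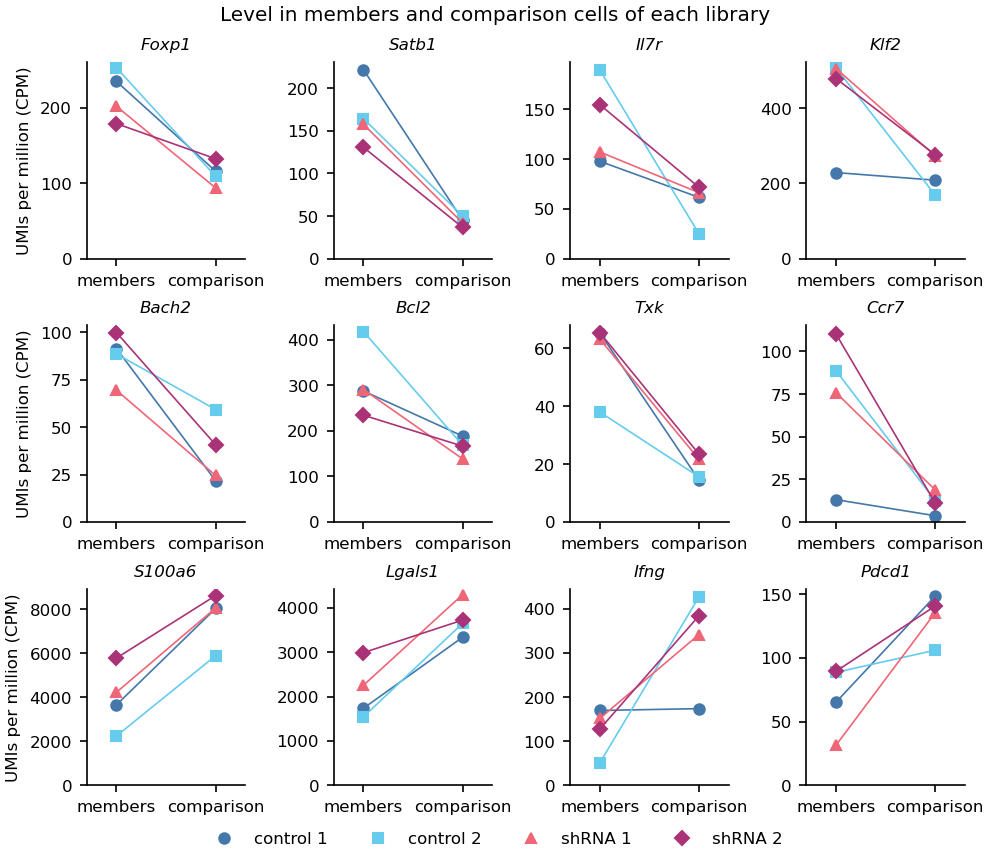
Level in CPM (y axis, linear from 0, a scale of its own for each gene) in the members and comparison cells of each library, joined by a line, for 8 genes of resting T cells and 4 of effector cells (S100a6, Lgals1, Ifng, Pdcd1). Satb1 lies at 131 to 222 CPM in the members and at 36.5 to 49.9 CPM in the comparison cells, and S100a6 rises from 2240 to 5783 CPM to 5894 to 8626 CPM.

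Of 28 cytotoxic and effector genes tested, 6 were lower in the members (S100a6, Lgals1, S100a4, Lgals3, Ifng and Anxa2), against 1.36% of all genes. None was higher, and the median log2 difference was -0.32. S100a6, a calcium-binding protein of activated and memory cells, had 3656, 2240, 4229 and 5783 CPM in the members and 8038, 5894, 8061 and 8626 CPM in the comparison cells. The classes did not overlap (log2 difference -0.98, SE 0.11, edgeR adjusted p = 1.07e-07). The call was lost without the cells with Sparc (log2 difference -1.02, adjusted p = 0.129), with at least 2 Cd3 UMIs (-0.35, 0.16), with no library block (-0.92, 0.207) and in cells with a Cd8 UMI (-0.53, 0.222). Lgals1, the gene of galectin-1, had 1736, 1544, 2254 and 2991 CPM against 3339, 3652, 4299 and 3725 CPM (log2 difference -0.82, SE 0.12, edgeR adjusted p = 2.49e-05), a call lost without control replicate 1 (adjusted p = 0.102), with at least 2 Cd3 UMIs (0.0582) and in cells with a Cd8 UMI (0.247). Lgals3 lost its call without shRNA replicate 2 (adjusted p = 0.0534), and Anxa2 without control 2 (0.134), shRNA 1 (0.182) and shRNA 2 (0.139). S100a6 and Lgals1 are far higher in the tumour cells of these libraries, at 15140 to 19340 CPM for S100a6 and 6960 to 8700 CPM for Lgals1. The summed level of the 9 tumour markers was 1018, 240, 934 and 585 CPM in the members and 786, 677, 998 and 1046 CPM in the comparison cells, so it was lower in the members of control 2, shRNA 1 and shRNA 2 and higher in control 1, and its part in these differences was not tested.

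Ifng, the interferon of cytotoxic cells, which tumour cells of these libraries hold at no more than 1.82 CPM, had 169.7, 50.6, 152 and 127 CPM in the members and 174, 427, 342 and 384 CPM in the comparison cells. In control replicate 1 both classes had a like level, which in the members rested largely on 1 cell with 14 of 26 UMIs. In the members of control 2, shRNA 1 and shRNA 2, 1 cell held 2 of 4, 17 of 24 and 5 of 37 UMIs. The log2 difference was -1.26 (SE 0.27, edgeR adjusted p = 0.0198), with an adjusted p of 0.134 without shRNA replicate 2 and 0.121 in cells with a Cd8 UMI. Gzmb, the gene of granzyme B, had 855, 379.6, 556 and 419.9 CPM against 636, 592, 751 and 537 CPM, and the classes overlapped (log2 difference -0.20, edgeR adjusted p = 0.561). A Gzmb UMI was present in 61 of the 217 members. After thinning to 1000 UMIs the shares with Gzmb were 25.6%, 17.2%, 22.2% and 16.8% of the members, 25.9%, 28.0%, 38.7% and 30.2% of the comparison cells and 0.0917% to 0.380% of the tumour-marker cells, which should lack it. Gzma, at 1214 CPM in the members of control replicate 1, rested there on 1 cell with 173 of 186 UMIs, and the gene had 0, 6.31 and 244 CPM in the other libraries. Ccl5 and Nkg7, a chemokine and a granule protein of cytotoxic cells, also did not pass (log2 differences -0.16 and -0.21, edgeR adjusted p = 0.639 and 0.381).

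Of 12 checkpoint and exhaustion genes tested, 2 were lower, Pdcd1 and Tnfrsf9, against 1.36% of all genes, and none was higher. Pdcd1, the gene of PD-1, had 65.3, 88.6, 31.6 and 89.5 CPM against 148, 106, 136 and 141 CPM, with no overlap (log2 difference -0.97, SE 0.26, edgeR adjusted p = 0.0269). It was past the threshold in only 8 of 17 alternatives, and each of the fits without control 1 (adjusted p = 0.0608), shRNA 1 (0.198) and shRNA 2 (0.113) lost it. Tnfrsf9, the activation receptor 4-1BB, had 287, 126, 170.4 and 217 CPM against 320.5, 505, 279.7 and 351 CPM (log2 difference -0.74, edgeR adjusted p = 0.0244), with control 1 of the members inside the range of the comparison cells. Its call was lost in 6 of 17 alternatives, among them without control 2 (adjusted p = 0.141) and shRNA 2 (0.152). Havcr2, in the same list, was excluded by the rule.

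All 15 glycolysis genes tested lay below 0, and 4 of them passed: Gapdh, Aldoa, Pgam1 and Tpi1, against 1.36% of all genes. Gapdh had 2774, 2063, 2506 and 2647 CPM in the members and 3595, 4285, 4359 and 3913 CPM in the comparison cells (log2 difference -0.67, SE 0.11, edgeR adjusted p = 6.23e-05). It lost its call with at least 2 Cd3 UMIs (adjusted p = 0.109) and in cells with a Cd8 UMI (0.524). Each of Aldoa, Pgam1 and Tpi1 lost its call without control 2 (adjusted p = 0.102, 0.156 and 0.0985), shRNA 1 (0.18, 0.112 and 0.178) and shRNA 2 (0.237, 0.143 and 0.196), and Pgam1 turned to 0.11 in cells with a Cd8 UMI. The median of the list was -0.42. Its 16 genes summed to 6125 to 7638 CPM in the members and 9263 to 10550 CPM in the comparison cells. Tumour-marker cells held 11380 to 12480 CPM and cells past the C1q limit 10300 to 12070 CPM. The part of RNA from such cells in the glycolysis difference was not tested. The 73 ribosomal protein genes tested had none past the threshold, with a median of 0.06. Of the lists of interferon response (28 tested), tissue residency (6), immediate early and heat shock (23) and MHC class I genes (13), 1 gene passed, Bst2 of the interferon list, lower by 0.86 on the log2 scale. Nrgn, a calmodulin-binding protein, was lower by 1.96 (39.2, 12.7, 31.6 and 65.4 CPM against 138, 134, 245 and 164 CPM) and kept its call in all 17 alternatives. Gm26870 and Gm10800, which also stood among the largest falls, are predicted genes of repeated sequence, and their counts are uncertain.

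Of 7 natural killer (NK) cell markers tested, 2 were higher in the members (Fcer1g and Klra1), against 1.5% of all genes. The other 5 did not pass, of which 2 lay below 0. Fcer1g, a signalling chain of Fc and NK receptors, had 405, 392, 354 and 409.6 CPM in the members and 167, 218, 222 and 219 CPM in the comparison cells (log2 difference 0.94, SE 0.16, edgeR adjusted p = 0.000229). Klra1, an NK receptor of the Ly49 family whose close copies may share reads, had 84.9, 38.0, 107 and 55.1 CPM against 10.9, 12.5, 41.8 and 20.7 CPM (log2 difference 1.70, edgeR adjusted p = 0.002). Cd7, of T and NK cells, had 150.1, 152, 164 and 120.5 CPM against 48.9, 40.5, 79.3 and 31.7 CPM (log2 difference 1.58, edgeR adjusted p = 3.11e-05). The summed level of the 10 NK markers was 797 to 1058 CPM in the members and 458 to 709.7 CPM in the comparison cells. The receptor gene Ncr1 had UMIs in the members of shRNA replicate 2 alone, but Klrb1c, another NK marker, was found more widely. A UMI of any NK marker other than Eomes was found in 45.2% of the members and 48.1% of the comparison cells, and after thinning to 1000 UMIs in 35.0% and 30.1%. No UMI of Ncr1 or Klrb1c was found in 31 of 39 and 27 of 29 control members and in 49 of 54 and 85 of 95 shRNA members. In the comparison cells the numbers were 158 of 162, 96 of 100, 170 of 186 and 396 of 433. Outside shRNA replicate 2, the remaining members thus held Klrb1c. Without the cells that had a UMI of Ncr1 or Klrb1c, 83 genes were higher and 59 lower, and the log2 difference of Satb1 was 2.19. Of the other cell types, 4 of the 6 B cell markers analysed, 5 of the 6 neutrophil markers and 4 of the 5 endothelial markers had no UMI in the members. The 12 macrophage or monocyte markers summed to 809 to 1253 CPM in the members, to 1285 to 1951 CPM in the comparison cells and to 38310 to 42230 CPM in C1q cells.

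The number of calls rested on shRNA replicate 2, the library with the most members: without it 17 genes were higher and 16 lower. Without control replicate 1 they were 88 and 65, and without the cells of 10000 or more UMIs, an alternative chosen after seeing the data, 78 and 87. When only cells with a Cd8a or Cd8b1 UMI entered both classes, 2 genes were higher and 4 lower of 1672, and Satb1 (log2 difference 1.70, edgeR adjusted p = 0.0364) and Nrgn (-2.25, 0.0227) were among them.

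Members differed among themselves by whether they were CD8 cells. A UMI of Cd8a or Cd8b1, the chains of the CD8 coreceptor, was found in 88 members, at 35.9%, 41.4%, 37.0% and 44.2% of the libraries, against 509 comparison cells (50%, 57.0%, 46.2% and 65.8%). The other 129 members had no UMI of Cd4 by the rule, so whether they were CD4, gamma delta or NK-like cells, or CD8 cells with no captured Cd8 transcript, cannot be told apart. Members with a Cd8 UMI held more Ccl4, Nkg7 and Thy1, and members without one more Fcer1g and Timp1. In edgeR's quasi-likelihood test of the 2 kinds within each library, 3 of 885 genes were higher with Cd8 (0.339%) and 2 lower (0.226%).

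Ccl4, a chemokine of activated CD8 cells, had 1875, 778, 598 and 1122 CPM in the members with a Cd8 UMI and 143, 24.7, 60.1 and 40.3 CPM in those without, the highest of which lay below the lowest with Cd8 (log2 difference 4.02, SE 0.33, edgeR adjusted p = 4.31e-06). It held in all 8 alternatives. Nkg7 had 994, 1141, 1571 and 2125 CPM against 539.7, 988, 621 and 650.1 CPM (log2 difference 1.08, edgeR adjusted p = 0.0433), and Thy1, a surface protein of T cells, 705, 623, 683 and 1037 CPM against 297, 395, 280.4 and 397 CPM (1.17, 0.0433). Neither was past the threshold without shRNA replicate 1 (adjusted p = 0.367 and 0.245) or shRNA replicate 2 (0.255 and 0.309). Fcer1g had 160.3, 182, 222 and 163 CPM in the members with Cd8 and 573, 593, 431 and 575 CPM in those without (log2 difference -1.58, SE 0.29, edgeR adjusted p = 0.0147, and 0.0935 without shRNA replicate 2). Cd7 lay the same way, at 112, 25.9, 85.4 and 17.1 CPM against 176, 272, 210.3 and 189.8 CPM, and did not pass (log2 difference -1.86, edgeR adjusted p = 0.139). The NK markers summed to 256 to 803 CPM with Cd8 and to 1041 to 1608 CPM without. Timp1, an inhibitor of proteases that the tumour cells held at 824 to 1479 CPM, had 144, 25.9, 68.3 and 51.4 CPM against 374, 49.4, 641 and 403 CPM (log2 difference -2.40, edgeR adjusted p = 0.00771, and 0.0832 without shRNA replicate 1). The tumour markers summed to 1234, 259, 137 and 85.7 CPM in the members with Cd8 and to 870.1, 222, 1402 and 920.5 CPM in those without, and their part in the difference was not tested.

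**Figure D4:**
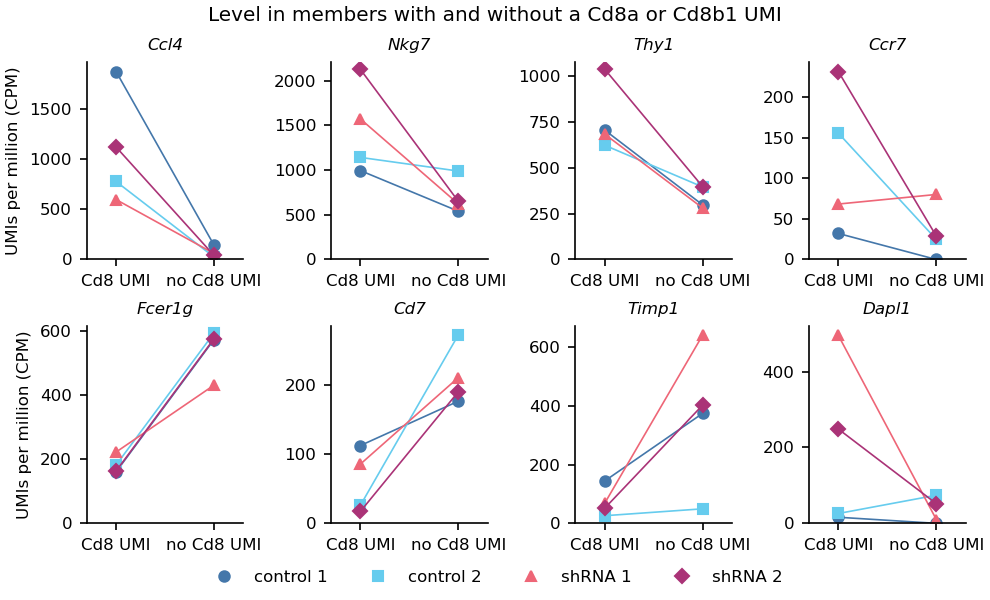
Level in CPM (y axis, linear from 0, a scale of its own for each gene) in members with and without a Cd8a or Cd8b1 UMI, joined by library. Ccl4 lies at 598 to 1875 CPM with Cd8 and 24.7 to 143 CPM without, and Fcer1g at 160.3 to 222 CPM with Cd8 and 431 to 593 CPM without.

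Ccr7, except in shRNA replicate 1, and Dapl1, except in control replicate 2, were higher in the members with Cd8, in counts too low to test. Ccr7 had 32.1, 156, 68.3 and 231 CPM with Cd8 and 0, 24.7, 80.1 and 28.8 CPM without. Dapl1 had 16.0, 25.9, 495 and 248 CPM with Cd8 and 0, 74.1, 10.0 and 51.8 CPM without. In the members of shRNA replicate 1, 11 of the 30 Dapl1 UMIs lay in 1 cell.

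Members that rested on a single UMI of Tcf7, Lef1 or Dapl1 held less Ccr7 and more S100a6 than the others, as a description. Ccr7 was at 0, 52.3, 52.3 and 89.2 CPM in them and at 43.7, 185, 112 and 167 CPM in those with 2 or more UMIs, the higher of the 2 in every library. In control replicate 1 the Ccr7 level rested on 2 UMIs of 1 cell. S100a6 was at 3902, 2493, 5040 and 6097 CPM against 3078, 1569, 2995 and 4920 CPM. Members chosen by Tcf7 alone held more of the tumour gene Sparc, at 830.3, 208, 1188 and 713 CPM, than those with Lef1 or Dapl1, at 621, 88.1, 99.9 and 54.8 CPM. A Tcf7 UMI was also found in 12.1%, 11.3%, 11.1% and 10.3% of the tumour-marker cells, at 9.22 to 11.7 CPM and a median of 9548 to 11226 UMIs per cell, while a Lef1 UMI was found in 0.422% to 0.613% and a Dapl1 UMI in up to 0.0315% of them.

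The members of the shRNA tumours were compared with those of the control tumours, the comparison the design was made for. Few genes differed. The chemokine gene Xcl1, the immediate early gene Fos and Ankrd1 were higher, and Apoe and 5 mitochondrially encoded genes were lower. Genes of rest and homing did not pass: Satb1, Klf2, Il7r, Bcl2 and Bach2 all had edgeR adjusted p-values of 0.874 or more. Ccr7, at 13.1 and 88.6 against 75.8 and 110.1 CPM, had the smallest p of the homing genes, with a log2 change of 1.25 (SE 0.60, edgeR adjusted p = 0.752), and the groups overlapped. In edgeR's quasi-likelihood test of 2 libraries against 2, 3 of 2075 genes were higher (0.145%) and 6 were lower (0.289%), outside the genes of the rule.

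Xcl1, the chemokine through which CD8 and NK cells attract cross-presenting dendritic cells, had 222 and 392 CPM in the control members and 852 and 626 CPM in the shRNA members. Both shRNA libraries lay above both controls, with means of 307 ± 120 and 739 ± 160 CPM (SD, n = 2 each), and the log2 change was 1.32 (SE 0.30, edgeR adjusted p = 0.0217). The UMIs came from 10 and 8 control members and 14 and 29 shRNA members. A single cell held 12 of 34 and 10 of 31 UMIs in the control libraries. In shRNA replicate 1, the library with the highest level, it held 52 of 135, and in shRNA replicate 2 it held 30 of 182. Thinned to 1000 UMIs, the share of members with Xcl1 was 15.4% and 13.8% against 18.5% and 25.3%. The comparison cells had 351 and 599 against 653 and 844 CPM, a log2 change of 0.68 that did not pass (edgeR adjusted p = 0.602), and the change did not differ between the classes past the test (interaction 0.59, SE 0.29, edgeR adjusted p = 0.999). The call was lost in 8 of 15 alternatives: with DESeq2 (1.3, adjusted p = 0.598), with at least 2 Cd3 UMIs (1.79, 0.167), without genes below their level in all cells (1.32, 0.125), in Cd8 cells (2.00, 0.162), without control replicate 1 (log2 change 0.97, adjusted p = 0.0877), without shRNA replicate 1 (1.10, 0.999), without shRNA replicate 2 (1.5, 0.15) and without marked doublets (0.95, 0.0802).

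Fos, an immediate early gene that also rises during tissue dissociation, had 516 and 367 CPM in the control and 884 and 1098 CPM in the shRNA members (log2 change 1.15, SE 0.27, edgeR adjusted p = 0.0242). The comparison cells showed a like gap, 429 and 243 against 606 and 850.4 CPM, which did not pass there (log2 change 1.08, edgeR adjusted p = 0.77; interaction 0.07, SE 0.28). Of 21 immediate early and heat shock genes tested, 1 was higher past the threshold, against 0.145% of all genes. In all, 20 lay above 0, with a median log2 change of 0.56 where that of all genes was -0.001. Their summed level was 8180 and 7795 against 10470 and 11490 CPM in the members and 8397 and 8669 against 9473 and 10770 CPM in the comparison cells. The part of tissue handling was not tested. Fos lost its call in 10 of 15 alternatives, among them without shRNA replicate 1 (adjusted p = 0.866) and shRNA replicate 2 (0.998).

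The mitochondrially encoded genes fell in the shRNA members: all 10 tested lay below 0, 5 passed, against 0.289% of all genes, and the median log2 change was -1.24. Cytochrome b (mt-Cytb) had 966 and 1202 against 303 and 327 CPM (log2 change -1.76, SE 0.27, edgeR adjusted p = 0.000107). The same gene fell in the comparison cells, at 1141 and 1060 against 247 and 412 CPM (-1.73, edgeR adjusted p = 0.00119), with no difference between the classes past the test (interaction -0.02, SE 0.27). In the tumour-marker cells it stood at 602 and 689.6 against 271 and 334 CPM and in C1q cells at 1064 and 1217 against 356 and 436 CPM. Summed over all mitochondrially encoded genes, the level was 12660 and 11110 against 4337 and 5879 CPM in the members, 7075 and 6676 against 3006 and 4004 CPM in the tumour-marker cells and 14150 and 13780 against 5380 and 6381 CPM in C1q cells, so it was lower in both shRNA libraries in each of these classes. The calls of mt-Atp6, mt-Co1, mt-Nd1 and mt-Nd5 were likewise lost without either shRNA library. Without shRNA replicate 1 the change in mt-Cytb was -1.69 (adjusted p = 0.63) and without shRNA replicate 2 it was -1.84 (0.132).

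Apoe, the apolipoprotein of macrophages, had 144 and 354 against 44.2 and 51.6 CPM in the members (log2 change -2.22, SE 0.46, edgeR adjusted p = 0.0156). The comparison cells had 148 and 159 against 159 and 129 CPM, and the difference between the classes came to -2.05 (SE 0.47, edgeR adjusted p = 0.0595). C1q cells held 11890 to 13790 CPM of Apoe in every library, such cells numbered 3037 and 3930 in controls against 1423 and 2001 with the shRNA, and over all cells Apoe stood at 2371 and 3659 against 1111 and 1218 CPM. Tumour-marker cells had 120.1 and 163 against 57.0 and 62.3 CPM. The part of free macrophage RNA in the change was not tested. Without control replicate 2 the call was lost (log2 change -1.51, adjusted p = 0.0885), as without shRNA replicate 1 (adjusted p = 0.766) and shRNA replicate 2 (0.132).

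Ankrd1, a target of mechanical signalling that the tumour cells held at 186 to 272 CPM, rested on 1 UMI in the control members and 14 and 33 UMIs in the shRNA members. The ratio of the rates, pooled over the libraries of each group, was 24.3, with an exact counting interval of 4.16 to 980.4. That interval treats each UMI as independent and leaves out the spread between cells and between libraries. It therefore cannot test a difference between the groups. Without the members with at least 10 Sparc UMIs per 10000, 1 UMI was left in each of control replicate 1 and shRNA replicate 1 and 24 in shRNA replicate 2. Its call (edgeR adjusted p = 0.0174) was lost without either shRNA library. In the shRNA libraries the gene lay mainly in members without Cd8, at 140.2 and 184 CPM against 0 and 8.57 CPM in those with Cd8.

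Of the genes that chose the members, Tcf7 stood at 255 and 342 CPM in the control and 290.4 and 231 CPM in the shRNA members, Lef1 at 137 and 215 against 183 and 206 CPM, and Dapl1 at 6.53 and 50.6 against 189 and 131 CPM. A Dapl1 UMI was found in 1 of 39 and 4 of 29 control members and in 9 of 54 and 14 of 95 shRNA members. Each member needed a UMI of 1 of the 3 genes, so their levels depend on one another and are given without a test.

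Sema4d itself, which T cells make, was at 209 and 278 CPM in the control and 88.4 and 114 CPM in the shRNA members. Both shRNA libraries lay below both controls, and the log2 change of -1.19 (SE 0.37) did not pass (edgeR adjusted p = 0.251). The comparison cells had 147 and 165 against 118 and 121 CPM (log2 change -0.38, edgeR adjusted p = 0.916), and the 2 changes did not differ past the test (interaction -0.82, SE 0.41, edgeR adjusted p = 0.999). After thinning to 1000 UMIs, 15.4% and 17.2% of control and 14.8% and 9.47% of shRNA members had a Sema4d UMI, against 0.422% to 0.820% of tumour-marker cells. The change had the same sign in each of 14 alternatives, from -0.97 to -1.62.

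**Figure D5:**
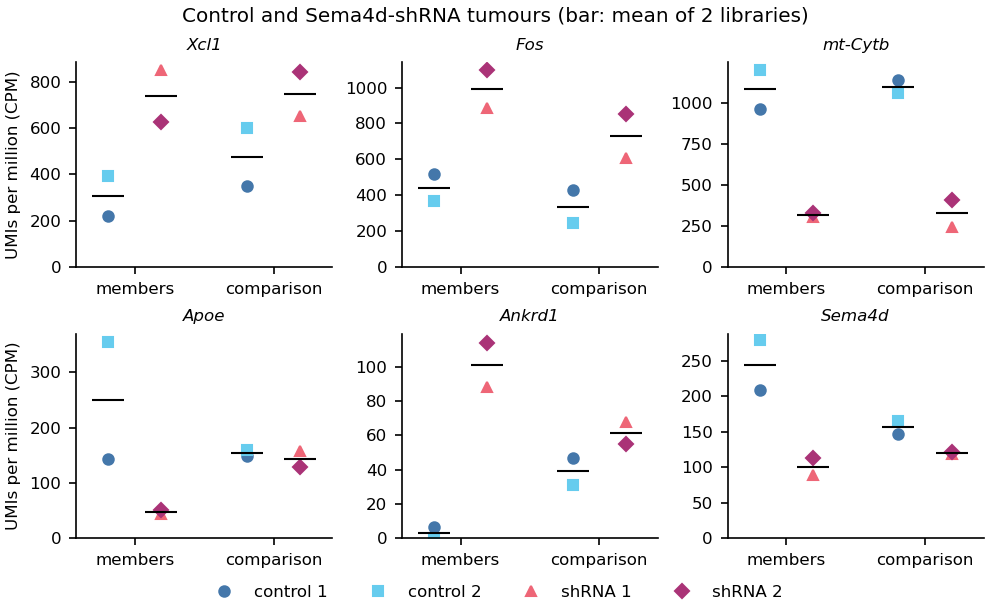
Level in CPM (y axis, linear from 0, a scale of its own for each gene) in the members (left pair) and comparison cells (right pair), with 2 control libraries left and 2 shRNA libraries right in each pair and the mean as a bar. Xcl1 lies at 222 and 392 CPM in control and 852 and 626 CPM in shRNA members, and mt-Cytb falls alike in both classes.

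Across genes, no difference in the shRNA effect between members and comparison cells passed the test. Of 4493 genes, edgeR's interaction test called 0 in either direction (0.0%), with 96 higher and 87 lower at an unadjusted p under 0.05, and DESeq2 also called 0. The smallest adjusted p was 0.0595, for Apoe and for Arg1, an enzyme of macrophages (interaction -3.06, 71.8 and 152 against 12.6 and 13.8 CPM in the members and 65.5 to 98.0 CPM in the comparison cells). Without control replicate 1 the test called 6 and 4 genes and without control replicate 2 it called 8 and 3.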

How the data were processed

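Raw UMI counts per gene and cell were deposited by the authors for each library, made with PISA 1.0 per the file headers; STAR 2.5.1b and the builds GRCh38 and mm10 are named in the submitters' processing notes without their roles. The annotation, how cells were called and whether strand was used: not given in the sources used here. Members were chosen by the rule in each library, and the members and gene lists were chosen with earlier results of these data known. Counts were summed per library and class and tested with edgeR 4.0.16 (limma 3.58.1, R 4.3.3) by the quasi-likelihood test with the filterByExpr filter, TMM scaling and Benjamini-Hochberg adjustment at 0.05, after the script was tested on simulated data. Class, Cd8 and interaction tests had library as a block. Shares were compared by exact permutation in Python 3.11.15 with scipy 1.17.1. Doublets were not removed; an alternative left out the 6% of cells per library with the highest scrublet score (scanpy 1.11.5). Named genes were the rule genes, a list of core T cell genes, up to 12 called genes with the largest log2 difference in each direction at a mean of 50 CPM or more, and up to 4 per list with the smallest p. Other genes given were chosen after their values were seen. Gene positions are from GENCODE vM21 (GRCm38). DESeq2 1.42.0, RLE scaling, no filter, other gates and leaving out each library were the alternatives. A gene of the lists is not reported here.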

Additional observations from a re-analysis of the deposited data

How the results depend on the processing

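The share of members among Cd3 cells differed by -0.29 percentage points between shRNA and control libraries and by -1.34 to 0.755 in its alternatives. Genes higher and lower in the members than in the comparison cells numbered 15 and 24 with at least 2 Cd3 UMIs, 2 and 4 in cells with a Cd8 UMI, 305 and 240 against comparison cells with any level of the 5 excluded genes, 22 and 23 with DESeq2, 26 and 11 with no library block, 83 higher without Ncr1 or Klrb1c UMIs, 104 lower with no filter, 87 lower without cells of 10000 or more UMIs and 31 lower without genes below their level in all cells. Leaving out 1 library gave 17 to 88 higher and 16 to 65 lower. Gm26917, a predicted gene, turned from 1.56 to -0.090 in cells with a Cd8 UMI, and Pgam1 from -0.56 to 0.11; the causes were not tested. Higher and lower genes in shRNA members numbered 1 and 1 with at least 2 Cd3 UMIs, 0 and 4 in Cd8 cells, 0 and 2 with DESeq2, 5 and 13 with the thinned gate, 7 and 6 with no filter, 2 and 5 with RLE, 0 and 2 without genes below their level in all cells, 6 and 9 without doublets, 4 and 7 without Sparc cells, 1 and 5 without deep cells, and 0 to 43 and 0 to 25 without 1 library. For the difference between classes they were 2 and 1 (thinned), 4 and 2 (doublets), 0 and 2 (Sparc cells, and deep cells), and 0 to 8 and 0 to 4 without 1 library. For the Cd8 split they were 2 and 3 (DESeq2), 9 and 20 (no filter), 1 and 2 (RLE), 3 and 5 (doublets), and 1 to 5 and 1 to 6 without 1 library.

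The replicate numbers are shared by the groups, but deviations of same-numbered libraries correlated at only 0.074 over 2085 genes, with 2 pairs, so the numbers are not taken to pair them. With the replicate block, 4 genes were higher and 5 lower in shRNA members, and the share differed by -0.29 percentage points. Of the named genes and genes of the lists that were called, 5 of 49 between the classes, 0 of 9 between the groups and 1 of 5 in the Cd8 split kept their call in each alternative that tested them. The 5 genes between the classes were A630014C17Rik, Satb1, Nrgn, Klra1 and Txk. A630014C17Rik cannot be told apart from Tcf7, a gene of the rule, so its kept call is no separate result. Satb1 and Nrgn were tested in all 17 alternatives, but Klra1 in only 13 and Txk in only 11. Neither Klra1 nor Txk was tested with at least 2 Cd3 UMIs, with the thinned gate or in cells with a Cd8 UMI. The alternatives without Sparc cells and without deep cells were chosen after seeing the data. With a library left out, the lone library of its group is assumed to vary like the others. At 79024 to 290527 member UMIs per library, Ccr7, S1pr1 and Slamf6 stayed below the filter between the classes.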
